A study of Rattus norvegicus with 15 samples.

Results

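rno-miR-101a and rno-miR-101b are the rat members of the miR-101 family, and both were measured by 2 probes each on arrays that carried 938 probes for 350 rat microRNAs (miRNAs). Every probe whose annotated name was exactly one of these names was taken, without the star form of the opposite arm, which gave 4 probes for 2 miRNAs. The members were chosen by the measured signal on these arrays: in earlier work on them, the difference of miR-101a between GF and Veh hearts had passed a test. For that reason GF minus Veh is given for the members as a description with no test, and their tests are given for DM minus Veh and GF minus DM. Some calls in GF minus Veh are printed for other miRNAs.

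The RNA came from hearts of male Sprague-Dawley rats, in 3 groups of 5 arrays. GF rats were made diabetic with streptozotocin at 60 mg/kg, a toxin of pancreatic beta cells, and were then starved for 24 h and injected with insulin at 0.5 IU/kg so that plasma glucose fluctuated. DM rats received the same streptozotocin and kept a steadily high glucose, and in both diabetic groups plasma glucose was above 300 mg/dL before the groups were formed. Veh rats received vehicle and were not diabetic. Fasting and insulin were given to GF rats alone, so their part and that of fluctuating glucose cannot be told apart. The age of the rats and the time after streptozotocin are not given in the sources used here, and nothing in the labels ties each array to an animal of its own. The p-values therefore reflect the spread between samples, part of which may be technical.

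miR-101 miRNAs are cut from the 3′ arm of their hairpins and repress messages that carry matches to the seed, the stretch near the 5′ end through which a miRNA pairs with its targets. Known targets include EZH2, the enzyme that places the repressive methyl mark on lysine 27 of histone H3 (shown in human cancer cells), Cox-2, which makes prostaglandins, and MCL1, a protein that protects cells from apoptosis. In the rat heart miR-101a is known for limiting scar formation after infarction through c-Fos in fibroblasts.

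The mature sequences are shown because the pair differs so little that the array had to tell the members apart by a single base. They are from RefSeq (build GRCr8), 5′ to 3′, with the seed (bases 2 to 8) in capitals. miR-144 is added as the tested relative nearest at the 5′ end.
miR-101a-3p: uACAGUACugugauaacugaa
miR-101b-3p: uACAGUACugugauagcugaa
miR-144-3p: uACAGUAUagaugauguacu

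Both members are 21 bases long and share the whole seed, and among 693 mature rat sequences in the table only these 2 carry it. They differ at 1 base outside the seed, A16G, where positions are counted from 1 at the 5′ end of miR-101a and the base of miR-101a is given first. GC content was 33.3% in miR-101a and 38.1% in miR-101b. miR-144-3p, a miRNA of red cell precursors, shares the first 7 bases with both members and departs from them at the last seed base. The mature miR-101a lies at chr5:121081691-121081711 on the minus strand, in the gene Mir101a, which overlaps an annotated long non-coding RNA gene. The mature miR-101b lies at chr1:236273982-236274002 on the plus strand, in the gene Mir101-2, inside the span of the protein-coding gene Rcl1, which encodes a factor of ribosomal RNA processing. The pair therefore comes from separate chromosomes. The hairpins are shown because they differ far more than the mature miRNAs do, with the mature part in capitals.
miR-101a hairpin: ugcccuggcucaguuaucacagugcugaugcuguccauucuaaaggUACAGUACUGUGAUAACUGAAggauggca
miR-101b hairpin: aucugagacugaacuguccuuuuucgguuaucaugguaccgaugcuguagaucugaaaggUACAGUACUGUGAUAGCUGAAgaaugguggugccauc

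In the hairpin of miR-101a (75 bases) the mature miRNA occupies bases 47 to 67, and in that of miR-101b (97 bases) it occupies bases 61 to 81.

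From 166 to 190 miRNAs were detected per array, no spot was saturated, and the number of arrays limits the precision. Arrays of 1 group whose values over 156 miRNAs differed by less than the error stated by the scanner software (reduced chi-square under 1) were averaged and counted once. This joined 5 pairs of arrays, with reduced chi-squares of 0.243 to 0.63, and left 10 distinct samples, of which 3 were GF, 3 were DM and 4 were Veh. The labels do not say whether the arrays of a pair are repeats of 1 RNA. A pair is written as GF 1+5, for replicates 1 and 5. One DM and one Veh sample lay nearer to another group than to their own. DM 3+5 had a reduced chi-square of 2.53 with its nearest GF array and 4.87 with its nearest DM array. Veh 5 had 1.15 with DM 1, 2.27 with GF 5 and 3.25 with its nearest Veh array, so arrays of both diabetic groups lay nearer. Results are therefore also given without each of these samples.

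The arrays were scaled to their 75th percentile, which before scaling averaged 2780 ± 529 for GF, 2027 ± 256 for DM and 2205 ± 261 for Veh samples (SD, n = 3, 3 and 4). GF exceeded DM by 753 (two-sided exact permutation p = 0.2, where the smallest that 3 against 3 samples can give is 0.1), with 695 within the first slide and 674 within the second. All differences below are of log2 scaled signal and so are relative to this scaling. In whole tissue, fewer cells of a type and less RNA per cell cannot be told apart.

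Both members were measured well above background by every probe on all 15 arrays. For miR-101a the 2 probes gave mean spot signals of 1471 to 3827 and of 1363 to 3586 across arrays before scaling, from 7 to 10 usable spots of 10. For miR-101b they gave 487 to 1105 and 248 to 526, from 8 to 10 usable spots. Repeated spots of a member's probe on 1 array varied with a coefficient of variation of 1.48% to 9.49%. The star form of miR-101a, from the opposite arm of the hairpin, reached a signal of at most 19.5, and the brightest of its 4 probes was well above background on 1 of 15 arrays.

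miR-101a had its highest signals in GF hearts, with DM hearts between them and Veh hearts. Its log2 scaled signal was 11.25 in GF 1+5, 11.29 in GF 2+4 and 11.26 in GF 6. In DM hearts it was 11.09 in DM 1, 10.94 in DM 2+4 and 11.19 in DM 3+5. In Veh hearts it was 10.87 in Veh 1+3, 10.71 in Veh 2, 10.75 in Veh 4 and 11.01 in Veh 5. The 3 GF samples lay close together and above every DM and every Veh sample, while DM and Veh samples overlapped through DM 2+4 and Veh 5. Veh 5, the control nearest to a DM array, was the highest control, and DM 3+5, the diabetic sample nearest to GF arrays, was the highest DM sample. The group mean was 11.27 ± 0.02 for GF hearts, 11.07 ± 0.12 for DM hearts and 10.83 ± 0.13 for Veh hearts (SD, n = 3, 3 and 4). Between the joined arrays of a pair, miR-101a differed by 0.0050 to 0.09, and the pooled SD between samples of a group was 0.11. The pairs were joined because their values were close, so this is no measure of technical repeatability.

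miR-101b spread more evenly over the groups. Its log2 scaled signal was 9.46 in GF 1+5, 9.53 in GF 2+4 and 9.29 in GF 6. In DM hearts it was 9.49 in DM 1, 9.37 in DM 2+4 and 9.26 in DM 3+5. In Veh hearts it was 9.28 in Veh 1+3, 9.10 in Veh 2, 9.23 in Veh 4 and 9.41 in Veh 5. All 3 groups overlapped, and GF 6 and DM 3+5, which were high for miR-101a, were the lowest of their groups for miR-101b. The group mean was 9.42 ± 0.12 for GF hearts, 9.38 ± 0.12 for DM hearts and 9.25 ± 0.13 for Veh hearts (SD, n = 3, 3 and 4), so neighbouring groups in this order differed by at most about 1 SD. The joined arrays of a pair differed by 0.04 to 0.09.

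**Figure D1:**
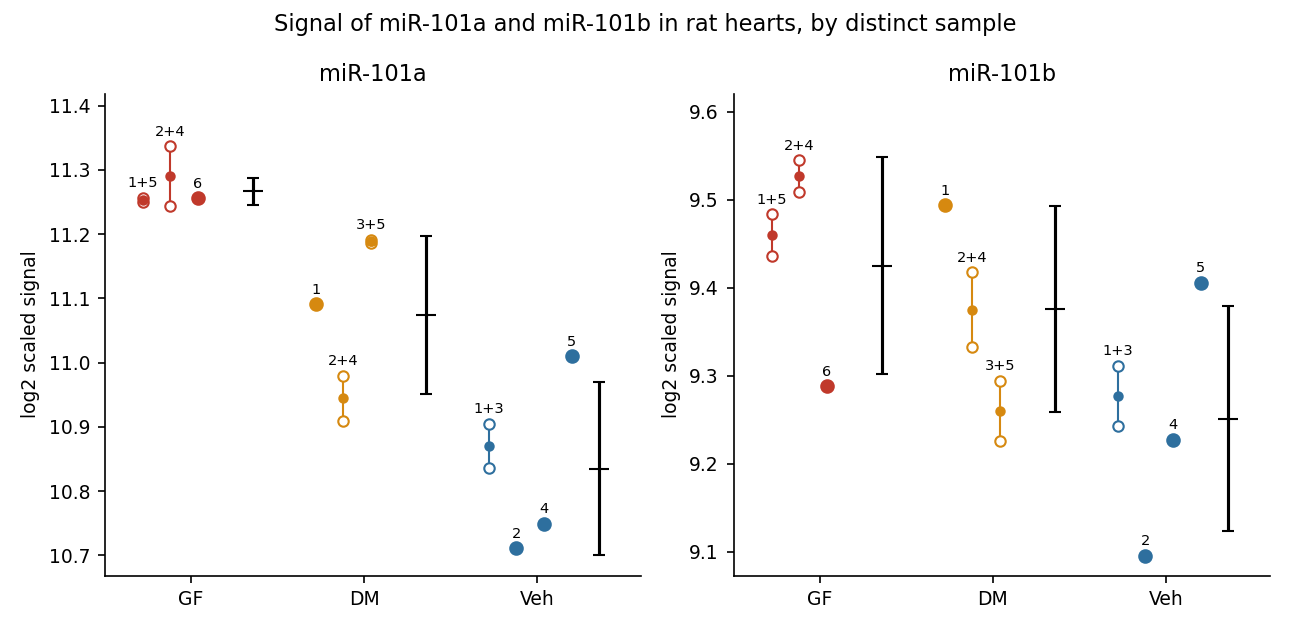
Log2 scaled signal (vertical axis, a separate range for each miRNA) in GF, DM and Veh hearts, for miR-101a on the left and miR-101b on the right. Filled points are distinct samples named by replicate number, and open points joined by a line are the arrays averaged into 1 sample. Black bars are the group mean ± SD (n = 3 GF, 3 DM, 4 Veh). For miR-101a the GF samples sit between 11.25 and 11.29, above every other sample, and for miR-101b the groups overlap.

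Between GF and Veh hearts, the contrast that the pair was proposed from, miR-101a was higher in GF by 0.43 ± 0.09 (SE) on the log2 scale, a 1.35-fold difference. For miR-101b the difference was 0.17 ± 0.10 (SE), or 1.13-fold. These are descriptions, and 7.88% of the tested miRNAs (13 of 165) passed in this contrast, of which nothing is read here. Likewise, the 3 GF samples of 12 of the 165 (7.27%) all lay above the 4 Veh samples, as those of miR-101a did. The median of all tested miRNAs was -0.05, and 9 of the 165 had a larger positive difference than miR-101a, while 26 had a larger one than miR-101b. Without Veh 5 the differences were 0.49 for miR-101a and 0.23 for miR-101b.

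The comparison of DM with Veh hearts asks whether diabetes with steadily high glucose, without fasting and insulin, goes with a change of these miRNAs. Neither member passed the threshold. For miR-101a the difference was 0.24 ± 0.09 (SE) on the log2 scale, with a 95% confidence interval of 0.03 to 0.45, which corresponds to 1.18-fold. Its unadjusted p from limma was 0.0268 and its adjusted p was 0.468, with adjusted p of 0.0589 to 1 over the alternatives. For miR-101b the difference was 0.12 ± 0.10 (SE; interval -0.10 to 0.35, limma adjusted p = 0.651). No miRNA passed here in limma (0 of 165, or 0%), 14 of 165 (8.48%) had an unadjusted p under 0.05, and 3 (1.82%) passed when the 15 arrays were taken as independent. A larger positive difference than that of miR-101a was seen for 16 of the 165, and than that of miR-101b for 42, against a median of 0.03 over all tested miRNAs. Without Veh 5, the highest control, the difference of miR-101a was 0.30 (limma adjusted p = 0.162). Without DM 3+5 it was 0.18 for miR-101a (limma adjusted p = 0.601) and 0.18 for miR-101b (limma adjusted p = 0.603). For miR-101b it was 0.07 without DM 1 and 0.07 without Veh 2. This comparison shares its Veh samples with GF minus Veh and is not independent of it.

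The comparison of GF with DM hearts addresses the question of the series, how fluctuating glucose differs from sustained hyperglycaemia. miR-101a was 0.19 ± 0.10 (SE) higher in GF hearts on the log2 scale, or 1.14-fold, with a 95% confidence interval of -0.03 to 0.41. It did not pass the threshold (limma adjusted p = 0.420, and 0.0944 to 0.910 over the alternatives). For miR-101b the difference was 0.05 ± 0.11 (SE; interval -0.19 to 0.28, limma adjusted p = 0.853). The intervals leave room for a difference of up to 0.41 for miR-101a and 0.28 for miR-101b, so equal levels were not shown. GF minus DM shares its GF samples with GF minus Veh, the contrast the pair was proposed from, and is not independent of it. No miRNA passed in limma (0 of 165, or 0%), 18 (10.9%) had an unadjusted p under 0.05, and 6 (3.64%) passed with 15 arrays taken as independent. On the 15 arrays neither member passed in either of these comparisons, with limma adjusted p of 0.0835 for miR-101a in DM minus Veh and 0.0944 in GF minus DM.

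The 3 GF samples of miR-101a all lay above the 3 DM samples, which held for 3 of the 165 tested miRNAs (1.82%) in that direction. The GF samples are the ones whose height led to the choice of miR-101a, so this is a description. The median of all tested miRNAs in GF minus DM was -0.08, and 8 had a larger positive difference than miR-101a. Within the first slide miR-101a was higher in GF than in DM by 0.21, and within the second by 0.20. For miR-101b these differences were 0.11 and 0.13. Without DM 3+5, GF exceeded DM by 0.25 for miR-101a (limma adjusted p = 0.219), and for miR-101b the difference was -0.0092. Without DM 2+4 the difference of miR-101a was 0.13 (limma adjusted p = 0.798). That of miR-101b was -0.0019 without GF 2+4, 0.03 without GF 1+5, 0.11 without DM 1 and 0.12 without GF 6.

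The probes of a member gave closely similar differences. In GF minus DM the brighter and dimmer probes of miR-101a differed between groups by 0.19 and 0.18, and those of miR-101b by 0.05 and 0.04. In DM minus Veh the values were 0.24 and 0.23 for miR-101a and 0.12 and 0.10 for miR-101b. In GF minus Veh they were 0.43 and 0.42 for miR-101a and 0.17 and 0.14 for miR-101b. The probes of 1 member read the same RNA on the same arrays and are not replicates.

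**Figure D2:**
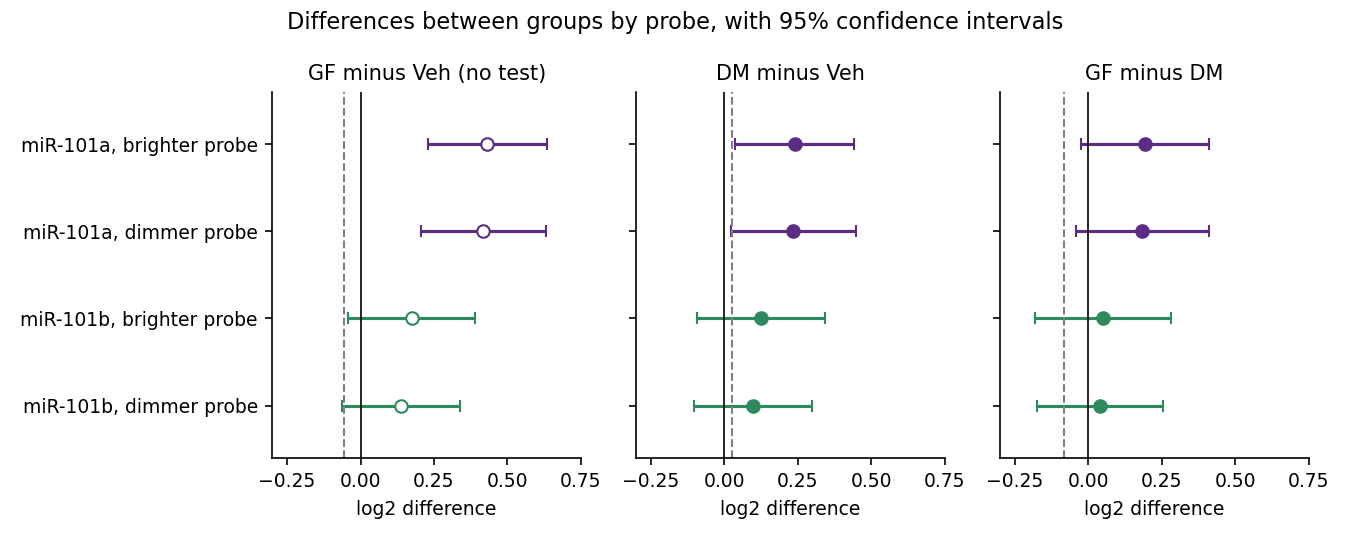
Log2 differences (horizontal axis) between groups for the brighter and dimmer probe of each member, with 95% confidence intervals from limma over 10 distinct samples. The solid line marks 0 and the dashed line the median of all tested miRNAs. Open points are the contrast with no test, and in each panel both miR-101a probes lie to the right of both miR-101b probes.

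How far the members moved together can be read within each sample, where the scaling of the array cancels. The log2 signal of miR-101a minus that of miR-101b was 1.79 in GF 1+5, 1.76 in GF 2+4 and 1.97 in GF 6. In DM hearts it was 1.60 in DM 1, 1.57 in DM 2+4 and 1.93 in DM 3+5. In Veh hearts it was 1.59, 1.62, 1.52 and 1.60. The 4 Veh samples and 2 of the 3 DM samples lay within a narrow band, and DM 3+5 and the 3 GF samples lay above it. The probes of the members differ in efficiency, so only changes of this quantity between samples can be read, not its size.

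The mean of this within-sample difference was 1.84 ± 0.11 for GF, 1.70 ± 0.20 for DM and 1.58 ± 0.04 for Veh hearts (SD, n = 3, 3 and 4). GF minus DM was 0.14 (two-sided exact permutation p = 0.3, with 0.1 the smallest possible). DM minus Veh was 0.11 (two-sided exact permutation p = 0.514, with 0.0571 the smallest possible). Neither design could reach the threshold of 0.05, and both comparisons share samples with GF minus Veh. Single samples moved these values: GF minus DM was 0.26 without DM 3+5, 0.08 without DM 2+4, 0.08 without GF 6 and 0.09 without DM 1. DM minus Veh was -0.00040 without DM 3+5 and 0.18 without DM 2+4. How much of the signal at a miR-101b probe comes from miR-101a, which differs by 1 base, was not tested.

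Across the 10 distinct samples the members had a Pearson r of 0.68 and a Spearman rho of 0.70 on log2 scaled signal, a description of points that share groups and array scaling. After leaving out Veh 2 and Veh 4, the 2 samples farthest from the median, Pearson's r was 0.31 over 8 samples with a narrower range. For the deviations from the group means r was 0.43.

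**Figure D3:**
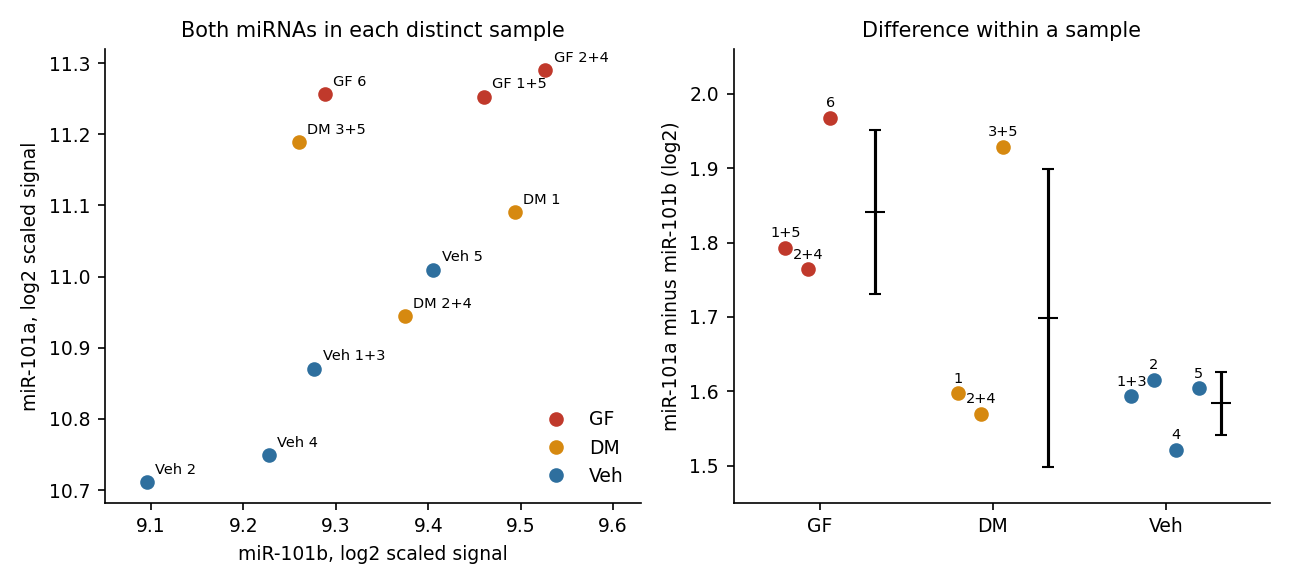
On the left, log2 scaled signal of miR-101a (vertical axis) against miR-101b (horizontal axis) in the 10 distinct samples, coloured by group. On the right, the difference of miR-101a and miR-101b (log2) within each sample with the group mean ± SD (n = 3 GF, 3 DM, 4 Veh). GF 6 and DM 3+5 stand out with 1.97 and 1.93, and the Veh samples sit between 1.52 and 1.62.

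The scaling of the arrays set the size of every difference with GF. With no scaling, GF minus DM was 0.64 for miR-101a and 0.50 for miR-101b, but the median of all tested miRNAs also stood at 0.35. Relative to that median, miR-101a stood 0.28 higher and miR-101b 0.14 higher, against 0.28 and 0.13 with the scaling used here. Scaling by 1 factor per array shifts all miRNAs above the floor alike. This closeness was therefore fixed beforehand and lends the differences no support. Scaled to the hur control spots, a set of array control probes, GF minus DM was 0.08 for miR-101a and -0.06 for miR-101b, with a median of -0.19. The sign for miR-101b in GF minus DM therefore turned with the scaling. In DM minus Veh, miR-101b stood at -0.0012 with no scaling and 0.30 with the hur spots, and miR-101a at 0.11 and 0.41.

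In the authors' deposited table of all comparisons, which was made without scaling between arrays and treats the 15 arrays as separate, both members are among 35 listed miRNAs. In the authors' deposited table the log2 difference of GF over Veh was 0.77 for miR-101a and 0.52 for miR-101b. The authors' deposited table gives DM over GF as -0.58 for miR-101a and -0.47 for miR-101b, so both were higher in GF. In the authors' deposited tables of pairs, both members are among the 30 miRNAs of GF and Veh and the 20 of DM and GF, and neither is among the 5 of DM and Veh. The deposited log2 values, fitted with limma over the 10 distinct samples, gave GF minus DM of 0.64 for miR-101a and 0.49 for miR-101b, again with a median of 0.36 over all their miRNAs.

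**Figure D4:**
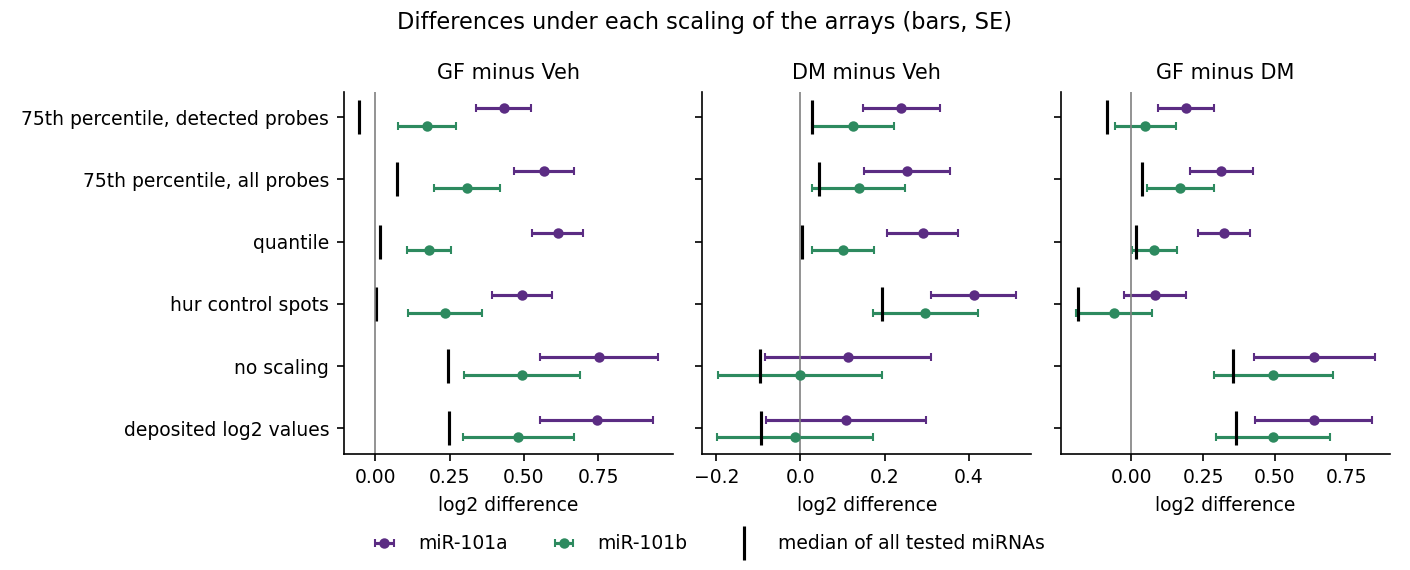
Log2 differences of miR-101a and miR-101b (horizontal axis, a separate range for each contrast) under each scaling of the arrays, with SE bars, over 10 distinct samples. Black ticks mark the median of all tested miRNAs under the same scaling. With no scaling the GF minus DM tick stands at 0.35, against -0.08 with the scaling used in the text, and both miRNAs lie further right there too.

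As a description, the 5 tested miRNAs with the highest Pearson r over the 10 distinct samples were taken for each member, on points that share groups and scaling. Those most like miR-101a were miR-26b (r = 0.96), miR-200c (0.96), miR-141 (0.94), miR-19a (0.91) and miR-34a (0.89), and miR-101b came at place 25. miR-26b, which is known to repress Ezh2 as miR-101 does, followed miR-101a closely in pattern and with smaller steps. Its log2 scaled signal was 13.21 ± 0.05 for GF, 13.11 ± 0.05 for DM and 12.95 ± 0.11 for Veh hearts (SD, n = 3, 3 and 4). miR-34a, whose gene is switched on by p53, had 11.18 ± 0.06 for GF, 11.02 ± 0.39 for DM and 10.50 ± 0.36 for Veh hearts (SD, n = 3, 3 and 4).

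miR-200c and miR-141 are neighbours in the genome and are known as miRNAs of epithelia. Their log2 scaled signals ranged far more widely than that of miR-101a. miR-200c stood at 8.16, 7.74 and 7.79 in GF 1+5, GF 2+4 and GF 6. In DM hearts it was 6.31 in DM 1, 6.04 in DM 2+4 and 8.14 in DM 3+5, and in Veh hearts it ran from 4.87 to 6.37, with the highest value in Veh 5. DM 3+5 and Veh 5, which lay high within their groups for miR-101a, also lay high for miR-200c. miR-141 was at the floor of 4.33 in 3 of 4 Veh samples, so its size of difference is not given. The part of epithelial RNA in the values of miR-101a was not tested.

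Those most like miR-101b were miR-21 (r = 0.94), miR-296* (0.84), miR-29a (0.82), miR-652 (0.82) and miR-26b (0.81), with miR-101a at place 20. The values of miR-296*, 4.43 to 5.36, lay near the floor of 4.33. miR-21, which rises in injured hearts and promotes fibrosis in mouse models, had a log2 scaled signal of 13.79, 13.91 and 13.43 in GF 1+5, GF 2+4 and GF 6. It had 13.77, 13.54 and 13.52 in DM 1, DM 2+4 and DM 3+5, and 13.24 to 13.60 in Veh hearts. As with miR-101b, GF 6 and DM 3+5 were the lowest of their groups. miR-26b alone appears beside both members.

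**Figure D5:**
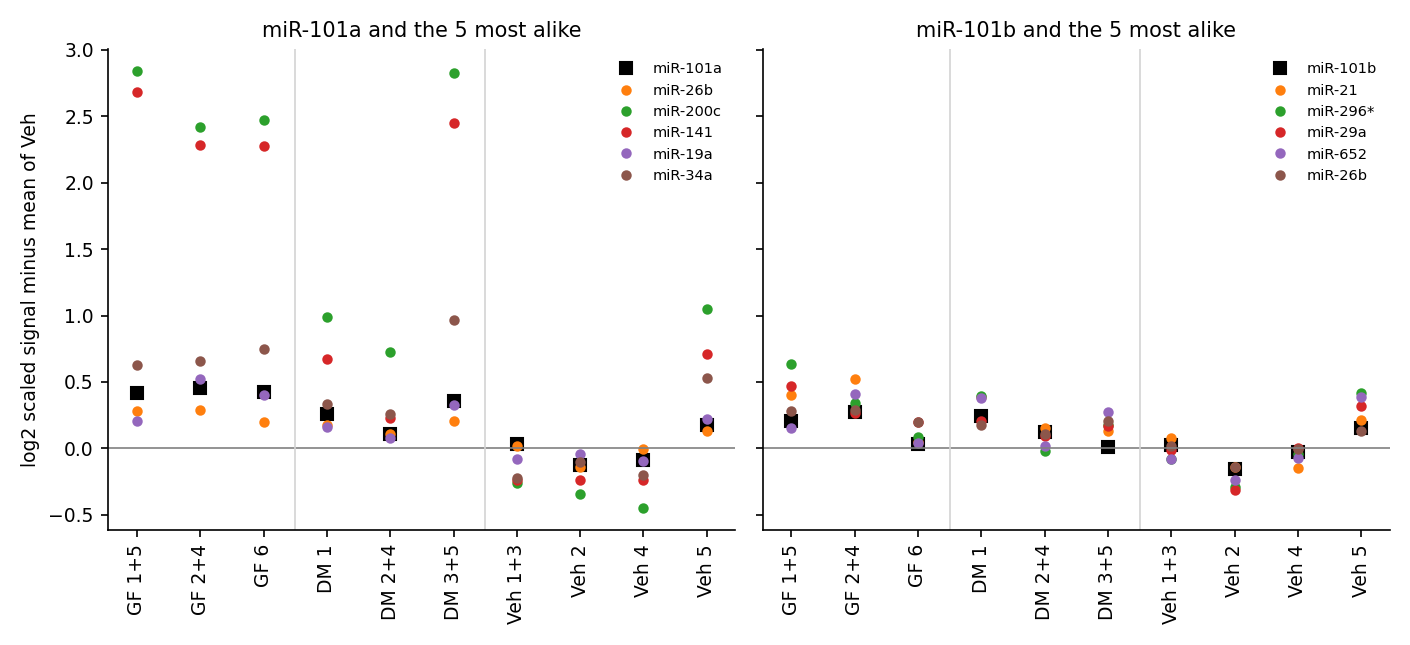
Log2 scaled signal minus the mean of the Veh samples (vertical axis) in each distinct sample, for each member (black squares) and the 5 tested miRNAs most like it by Pearson r over 10 samples. miR-200c and miR-141 span a far wider range than miR-101a, and in DM 3+5 both lie at the height of the GF samples.

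Relatives by seed or by known target did not move as 1 group. miR-144, which shares the first 7 bases, had a difference of -0.54 ± 0.19 (SE) on the log2 scale in DM minus Veh (limma adjusted p = 0.468) and 0.20 ± 0.20 in GF minus DM (limma adjusted p = 0.705). Its partner from the same transcript, miR-451, an abundant miRNA of red cells, had -0.61 in DM minus Veh and 0.26 in GF minus DM. Of 5 other miRNAs known to repress Ezh2, 3 were tested, and miR-138 and miR-217 were not well above background. The 3 had a median difference of 0.09 in DM minus Veh and 0.05 in GF minus DM, against 0.03 and -0.08 over all tested miRNAs. miR-26a and miR-26b were above 0 in both contrasts, while miR-214 had -0.06 in DM minus Veh and -0.51 in GF minus DM. These signs depended on the scaling. With the hur spots 0 of the 3 were above 0 in GF minus DM, and with no scaling 1 of the 3 was above 0 in DM minus Veh. None passed in either contrast (0 of 3).

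Among 7 other miRNAs known to limit fibrosis of the heart, all were tested and none passed in DM minus Veh or GF minus DM (0 of 7, limma). The miR-29 family, which represses collagens, had differences above 0 in both with the scaling used here. In GF minus DM they were 0.16 for miR-29a, 0.10 for miR-29b and 0.08 for miR-29c, and in DM minus Veh 0.16, 0.24 and 0.11. miR-30c and miR-133a, repressors of connective tissue growth factor, had -0.04 and 0.01 in GF minus DM. miR-24 and miR-133b had the lowest values of the list in GF minus DM, with -0.19 and -0.14. In DM minus Veh miR-24 had 0.04 and miR-30c had 0.13, and miR-133a and miR-133b had -0.35 and -0.18. The median of the list was 0.01 in GF minus DM and 0.11 in DM minus Veh. The signs depended on the scaling. In GF minus DM 1 of the 7 was above 0 with the hur spots and 7 of 7 with no scaling. In DM minus Veh 2 of the 7 were above 0 with no scaling.

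Markers of the cells in the tissue were set beside the pair. All 5 miRNAs of heart muscle (miR-1, miR-133a, miR-133b, miR-208 and miR-499) were well above background on 15 of 15 arrays, and the summed scaled signal was 117019 to 135279 in GF, 129064 to 138413 in DM and 126627 to 173972 in Veh samples. The sum is carried by the most abundant of them and does not show miR-208, whose host gene encodes a cardiac myosin heavy chain. The log2 scaled signal of miR-208 averaged 10.27 in GF, 11.06 in DM and 11.62 in Veh hearts. In GF minus Veh it fell by 1.34 (SE 0.28, limma adjusted p = 0.0194), the contrast in which miR-101a differed by 0.43, and it passed under 17 of 25 alternatives, with differences of -1.58 to -1.02 and adjusted p of 0.000531 to 0.120. Its difference was -0.78 in GF minus DM (limma adjusted p = 0.408) and -0.56 in DM minus Veh (limma adjusted p = 0.546). All 5 muscle miRNAs were below 0 in GF minus Veh and in DM minus Veh, and 4 of 5 in GF minus DM. With no scaling, 2 of 5 were below 0 in GF minus Veh and 1 of 5, miR-208, in GF minus DM, and with the hur spots 3 of 5 were below 0 in DM minus Veh. The median of the 5 was -0.32 in GF minus Veh, -0.18 in DM minus Veh and -0.08 in GF minus DM, against -0.05, 0.03 and -0.08 over all tested miRNAs. miR-122, which marks liver, was at the floor in every sample. The endothelial miR-126 and its star form had summed signals of 15949 to 17276 in GF, 17817 to 21180 in DM and 19607 to 24253 in Veh samples. The GF range lay below the DM and Veh ranges, which overlapped each other. Over all tested miRNAs, the GF samples all lay below the DM samples for 21 of 165 and below the Veh samples for 32 of 165. The difference of miR-126 was -0.18 in GF minus DM (limma adjusted p = 0.489) and -0.18 in DM minus Veh (limma adjusted p = 0.548). In GF minus Veh it was -0.37 (limma adjusted p = 0.0542). With no scaling 2 of 2 endothelial miRNAs were above 0 in GF minus DM, with a median of 0.32.

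In the other lists the GF range of the sum overlapped that of DM, but a sum follows its most abundant member. The 4 fibroblast-rich miRNAs summed to 14581 to 18471 in GF, 15652 to 18991 in DM and 14284 to 17771 in Veh samples, and this sum holds miR-21, which had 0.10 in GF minus DM. The other 3 had differences below 0 in GF minus DM, with -0.33 for miR-199a-3p, -0.38 for miR-199a-5p and -0.51 for miR-214 (limma adjusted p of 0.408, 0.418 and 0.408). In GF minus Veh these 3 had -0.39, -0.48 and -0.57 (limma adjusted p of 0.0733, 0.0887 and 0.0887). There miR-21 had 0.32 (limma adjusted p = 0.151). The median of the 4 was -0.36 in GF minus DM, against -0.08 over all tested miRNAs. With no scaling 1 of the 4, miR-214, was below 0 in GF minus DM and the median was 0.09.

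The 4 leukocyte miRNAs on the array summed to 3802 to 4481 in GF, 3918 to 4937 in DM and 4477 to 4733 in Veh samples. The smooth muscle pair miR-143 and miR-145 summed to 14476 to 18520 in GF, 15025 to 16769 in DM and 11914 to 19283 in Veh samples. The red cell pair miR-144 and miR-451 summed to 4689 to 6048 in GF, 3512 to 6293 in DM and 6263 to 7487 in Veh samples. The GF range of this sum lay below the Veh range, as the GF samples did for 32 of 165 tested miRNAs. In GF minus Veh, miR-142-5p, a miRNA of blood cells, fell by 0.64 (SE 0.16, limma adjusted p = 0.0367). It passed under 13 of 25 alternatives, with adjusted p of 0.00294 to 0.331. In GF minus DM it had -0.54 (limma adjusted p = 0.272). The other leukocyte miRNAs did not all go the same way. In GF minus Veh miR-142-3p had -0.48, miR-150 had -0.01 and miR-223 had 0.51. In GF minus DM these had -0.49, 0.26 and 0.15. Over the marker lists, miR-208 and miR-142-5p passed in GF minus Veh, and no marker passed in DM minus Veh or GF minus DM. This holds for the 10 distinct samples with the scaling used here. In DM minus Veh miR-144 and miR-451 each passed under 4 of 25 alternatives, where at most 4 of all miRNAs passed. In GF minus DM miR-142-5p passed under 3 of 25, and miR-142-3p and miR-208 under 1 each, where at most 6 of all miRNAs passed. Markers that did not pass in GF minus Veh here did so under up to 10 of 25, the most for miR-126. Of all tested miRNAs, 13 of 165 (7.88%) passed in GF minus Veh, and 0 of 165 passed in DM minus Veh and in GF minus DM. Nothing particular to the markers is read from these calls. The part of any of these cell types in the values of miR-101a and miR-101b was not tested.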

How the data were processed

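The members and lists were chosen with earlier results of these data known. Per the file headers, Agilent Feature Extraction 9.5.3.1 read the arrays, and the deposited files hold background-subtracted intensity per spot, not scaled between arrays. The table of filtered miRNAs that the authors deposited gives log2 total gene signal relative to the mean of the Veh arrays. The authors' deposited tables of comparisons hold an uncorrected p-value of a 3-group test and log2 differences.

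From these, spots marked as non-uniform or population outliers were dropped and spots averaged per probe. Scaling divided the signals by the 75th percentile of each array, taken over 254 probes that exceeded background in more than 0.5 of their spots on all 15 arrays, and multiplied them by a common level. Signals under a floor of 20.1 were set to it, and log2 was taken. The brightest probe stood for each miRNA. Of 350 miRNAs, 165 were tested (above background on 3 or more of the 5 arrays of any group). limma 3.58.1 in R 4.3.3 (lmFit, eBayes) fitted all distinct samples at once, two-sided. P-values were adjusted by Benjamini-Hochberg per contrast, with 0.05 as threshold. The procedure was tested on simulated data. Exact permutation tests used scipy 1.17.1. GF replicates are numbered 1, 2, 4, 5 and 6, as in the labels. Named miRNAs were the members, the listed miRNAs and the 5 most alike per member. A description by GC content was void, because 26.1% of the tested miRNAs matched 1 RefSeq sequence and 80% were needed. The normexp alternative used median spot signals, since mean spot signals were not available. Alternatives covered the counting of joined arrays, slide, replicate number, scaling, background correction, probe summary, filter and samples left out.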

Additional observations from a re-analysis of the deposited data

How the results depend on the processing

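miR-101a was above 0 in each of the 3 contrasts under all 27 alternatives. Some of these could not change a difference: another filter, or leaving out a sample of the group not compared. In GF minus Veh miR-101a stayed at 0.43 under these. No alternative with a test brought either member past the threshold in DM minus Veh or GF minus DM. The values within a slide had no test. In GF minus Veh, a description, miR-101a moved to 0.75 with no scaling, 0.57 with the percentile taken over all probes, 0.61 with quantile normalization and 0.74 with the deposited log2 values. For miR-101b it moved to 0.49, 0.31 and 0.48 with no scaling, all probes and deposited values, and to 0.31 within slide 1, while its DM minus Veh difference was -0.013 within slide 2. Leaving out 1 sample at a time gave 0.39 to 0.49 for miR-101a and 0.12 to 0.24 for miR-101b in GF minus Veh, 0.18 to 0.30 and 0.07 to 0.18 in DM minus Veh, and 0.13 to 0.25 and -0.0092 to 0.12 in GF minus DM. For the within-sample difference of the members it gave 0.19 to 0.30 in GF minus Veh, -0.00040 to 0.18 in DM minus Veh and 0.08 to 0.26 in GF minus DM. Counts of all miRNAs past the threshold moved far more. In GF minus Veh the 13 (5 higher, 8 lower) became 60 with 15 independent arrays, 57 with slide as a block, 21 with the mean of all probes, 7 with quantile normalization (6 higher, 1 lower) and 2 with the deposited values (2 higher). The count was 0 with no filter and 0 when arrays under the wider limit of 1.2 were merged, which leaves 8 samples. The split was 16 higher and 2 lower with no scaling, 15 and 1 with all probes, and 10 and 1 with the hur spots. In DM minus Veh the count of 0 became 3 with 15 independent arrays and 3 with slide as a block. In GF minus DM it became 6 and 5 under these, 1 with no scaling and 1 with normexp. Without 1 sample the counts ran from 0 to 28 in GF minus Veh (28 without Veh 5, 24 without DM 3+5, and 0 without Veh 1+3, Veh 2, Veh 4 or GF 2+4), 0 to 2 in DM minus Veh (2 without DM 1) and 0 to 6 in GF minus DM (6 without DM 3+5). The cause of these moves was not tested. Counts within a slide were not run.

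Replicate numbers were not used to pair the arrays in the main fit. Of 13 same-numbered pairs of different groups, 6 had a correlation of deviations above 0.1 (from -0.53 to 0.47). The pairs of Veh and GF had 0.21, 0.15, 0.29 and 0.47, and the pairs with DM ran from -0.53 to 0.29. Of 15 arrays, 7 correlated best with their own number. No chance level was computed, so whether the numbers pair the arrays was not tested. With the replicate block on 15 arrays the counts were 50 in GF minus Veh, 4 in DM minus Veh and 1 in GF minus DM, and GF minus DM of miR-101a was 0.21.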
